A study of Mus musculus with 18 samples.

Results

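Mouse oocytes without Lsm14b were compared with wild-type (WT) oocytes at metaphase I (MI), when homologous chromosomes are aligned on the first meiotic spindle. The comparison rests on 6 of the 18 libraries of the series, 3 from WT mice and 3 from Lsm14b-/- mice (KO), each made from 15 oocytes. It covered every gene with an FPKM (reads per kilobase of exon, scaled to the depth of the library) of at least 1 in at least 3 of these 6 libraries, which were 8973 of the 27874 genes in the table. That level was the only condition for entry. The other 12 libraries are from the same genotypes at the germinal vesicle (GV) stage and at 14 h after hCG, the time that the labels call MII. The labels state neither the strain, the age of the mice, how the allele was made, nor the hours in culture before MI. They number the replicates 1 to 3 without saying that each came from separate mice, so p-values measure the spread between these libraries, which may be technical. The MI libraries are called WT 1 to WT 3 and KO 1 to KO 3 below.

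Fully grown oocytes make little new RNA and carry meiosis through on mRNA stored earlier. LSM14 proteins sit on mRNA in cytoplasmic ribonucleoprotein particles with the helicase DDX6 and the eIF4E-binding protein 4E-T, and they are known for repressing and storing mRNA. As meiosis resumes, some stored mRNAs gain poly(A) and are translated while others lose their tails and decay, and MI falls within that change. The cDNA was primed with oligo(dT), so less mRNA and shorter tails cannot be told apart. As FPKM is scaled to the depth of the library, a change in the total RNA per oocyte cannot be seen.

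Each MI library held 15173289 to 17183680 reads on genes. Between 8192 and 9795 genes were at 1 FPKM or above. Across genes, which are not independent replicates, Pearson's r of log2(FPKM + 1) was 0.963 to 0.972 within WT, 0.961 to 0.988 within KO and 0.890 to 0.935 between the genotypes. The label of oocytes was checked against 15 oocyte markers, whose FPKM summed to 30206 to 39355 in WT and to 34628 to 38742 in KO. Of 22 cumulus and granulosa markers, Amh, Amhr2, Foxl2 and Ereg were at 0 in all 6 libraries, and the sums were 7.37 to 12.4 FPKM in WT and 8.39 to 9.55 in KO. Of 11 markers of theca, stroma and endothelium, Col1a1 was at 0, with sums of 4.45 to 5.95 and 3.94 to 4.85 FPKM. Of 11 blood and immune markers, Hba-a1, Hbb-bs and Cd3e were at 0, but the sums were 11.6 to 63.4 FPKM in WT and 3.53 to 8.03 in KO. The highest sum was that of WT 2, which also had the most genes at 1 FPKM. Lyz2, a macrophage gene, had 27.5 FPKM there and 0.315 and 0.199 in WT 1 and WT 3. C1qb, another macrophage gene, was higher in all WT libraries, with 14, 28.7 and 10.5 FPKM in WT and 1.56, 4.92 and 6.4 in KO (log2 -1.84, SE 0.41, adjusted p = 0.00383), and its call was kept without each MI library. Its partner C1qa had 4.37 FPKM in WT 2, but 0.114 and 0 in WT 1 and WT 3 and 0 in every KO library. Cd68, also a macrophage gene, had 0.613, 2.15 and 0.935 FPKM in WT and 1.74, 1.99 and 1.4 in KO. For Cd68, WT 1 and WT 3 thus lay below every KO library. The part of these differences in the results was not tested, and the total counts below are also given without WT 2.

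Lsm14b (ENSMUSG00000039108, chr2:180024987-180035465, plus strand, mm10) had 11.2, 4.99 and 5.01 FPKM in the 3 WT libraries and 0.126, 0.121 and 0.126 in the 3 KO libraries. In reads these are 548, 219 and 222 against 6 in each KO library. Every KO library thus lay far below every WT library, as its label says (log2 -2.76, SE 0.24, adjusted p = 3.56e-07). For the paralog Lsm14a the values were 30.6, 32.3 and 20.3 FPKM in WT and 30.1, 31.6 and 35.4 in KO. These ranges overlapped and no difference was called (log2 0.24, SE 0.25, adjusted p = 0.564).

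At MI the KO had more genes below WT than above it. An adjusted p under 0.05 (limma on log2(FPKM + 1), Benjamini-Hochberg over all 8973 genes) was reached by 1623 genes, or 18.1%. Of these, 349 (3.89%) were higher and 1274 (14.2%) lower in KO, with median log2 differences of 0.98 and -1.08. Of the higher genes 40 were under 1 FPKM in every WT library, and of the lower genes 215 in every KO library. They passed the filter through the other genotype alone, where they are high, so their direction was fixed by the filter. At least 2-fold differences were held by 161 of the higher and 742 of the lower genes. The KO libraries all lay above the WT libraries for 1059 genes (11.8%) and all below for 2204 (24.6%), whether called or not. Among the calls, 332 of the higher and 1249 of the lower were so separated. The balance of the directions depends on the scaling. The median of all genes was -0.12 as deposited, 0.02 with median-of-ratios scaling and 0.05 with quantile normalization. Median-of-ratios scaling gave 770 higher and 1065 lower genes (8.58% and 11.9%), and quantile normalization 1041 and 1154 (11.6% and 12.9%). With the MI libraries alone in the fit, 1525 genes (17%) were called, 380 higher (4.23%) and 1145 lower (12.8%). The counts also moved with single libraries. They were 292 higher and 732 lower without WT 2, 257 and 1064 without WT 1, and 166 and 1374 without WT 3. They were 221 and 966 without KO 1, 189 and 1084 without KO 2, and 252 and 837 without KO 3. The calls that remained in all 6 of these fits numbered 109 higher and 656 lower, and a call is said below to hold where it is one of them. Where a call does not hold, the libraries whose omission ends it are named, with the adjusted p without them in brackets.

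**Figure D1:**
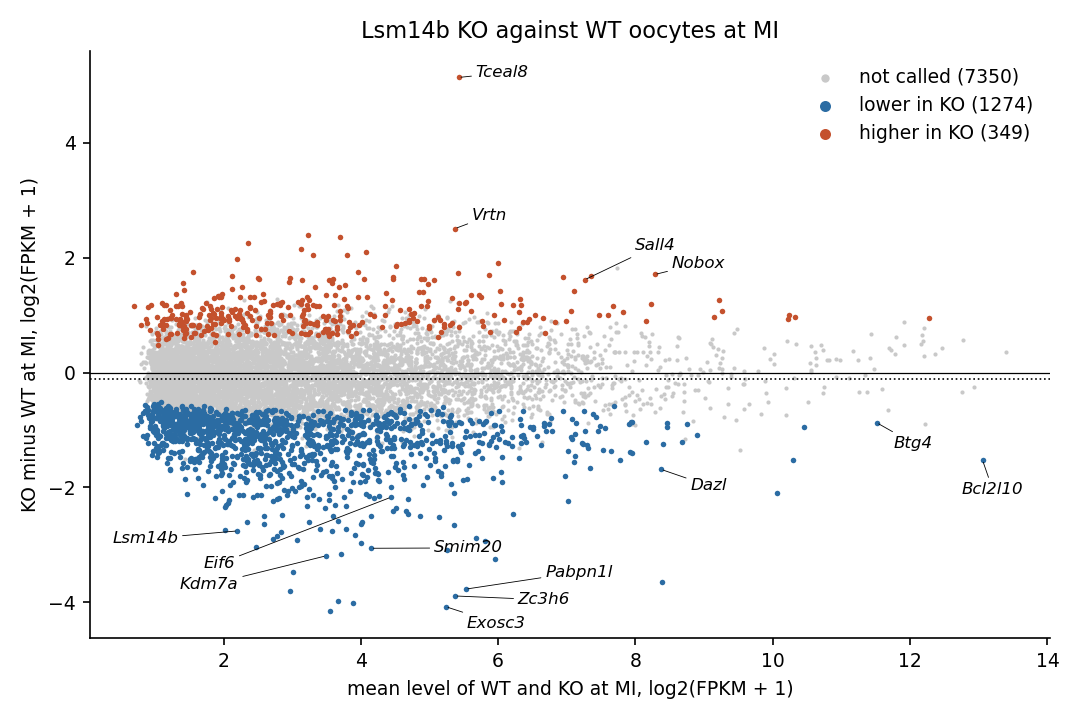
Log2 difference between KO and WT at MI (vertical axis, log2(FPKM + 1)) against the mean level of both genotypes (horizontal axis, log2(FPKM + 1)), 1 point per gene tested. On the deposited scale the 1274 lower genes (blue) outnumber the 349 higher genes (orange), and the dotted line marks the median of all genes, -0.12.

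Of the named genes that were lower in KO, those with the largest differences were nearly lost from it (named genes follow a rule given with the processing). Exosc3 (ENSMUSG00000028322, chr4:45316613-45342732, minus strand) encodes a non-catalytic subunit of the RNA exosome. It had 71.3, 73.2 and 66.7 FPKM in WT and 2.84, 3.69 and 3.16 in KO (log2 -4.08, SE 0.31, adjusted p = 1.23e-07). Zc3h6, a CCCH zinc finger gene, had 78.5, 65.9 and 85.8 FPKM in WT and 3.74, 5.04 and 3.92 in KO (log2 -3.89, SE 0.21, adjusted p = 7.92e-10). Pabpn1l encodes a poly(A)-binding protein of oocytes and early embryos, and its values were 126, 49.995 and 80.3 FPKM in WT and 2.9, 6.54 and 5.99 in KO (log2 -3.77, SE 0.35, adjusted p = 8.95e-07). In all 3 genes the KO libraries lay close together, far under the lowest WT library. Kdm7a, which encodes a demethylase of histone H3, had 25.5, 21.6 and 11 FPKM in WT and 0.978, 1.14 and 1.22 in KO (-3.19). Smim20 encodes a small protein of the inner mitochondrial membrane and had 24.6, 46.1 and 22.1 FPKM in WT and 2.69, 2.5 and 2.71 in KO (-3.06). Its KO values almost coincided, while WT 2 was the highest WT library. C1galt1c1, the chaperone of an O-glycan galactosyltransferase, had 21.9, 45.9 and 9.69 FPKM in WT and 2.35, 2.57 and 1.63 in KO (-2.84).

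The other 9 of the 15 lower genes differed by log2 -2.48 to -2.65. Pdcl3, a phosducin-like co-chaperone, had 63.4, 47.2 and 67.1 FPKM in WT and 8.53, 10.1 and 9.72 in KO. Pop7, a protein subunit of RNase P and RNase MRP, had 27.8, 45.2 and 15.5 FPKM in WT and 3.26, 3.5 and 5.27 in KO. Exosc4, another subunit of the exosome ring, had 7.89, 19 and 7.39 FPKM in WT and 0.812, 1.44 and 0.934 in KO, with 19.8% of its exon bases lying in other genes too. Both mitochondrial genes of the set were at their highest in WT 2. Timm17a, a subunit of the inner membrane translocase, had 28, 79.3 and 39.7 FPKM in WT and 9.31, 5.65 and 6.61 in KO. Mrps18a, a protein of the mitochondrial ribosome, had 7.6, 13.8 and 6.37 FPKM in WT and 0.625, 0.52 and 1.08 in KO. The remaining differences were -2.65 in Mapk1ip1, -2.61 in Znhit2, -2.60 in Thap7 and -2.50 in Srek1ip1. The rule admits only genes whose groups do not overlap, and all 15 calls held. For Mapk1ip1, Znhit2, Thap7, Pop7, Mrps18a, Timm17a, Exosc4, Smim20 and C1galt1c1, WT 2 was the highest library, and without it their adjusted p was 1.45e-06 to 0.00293.

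**Figure D2:**
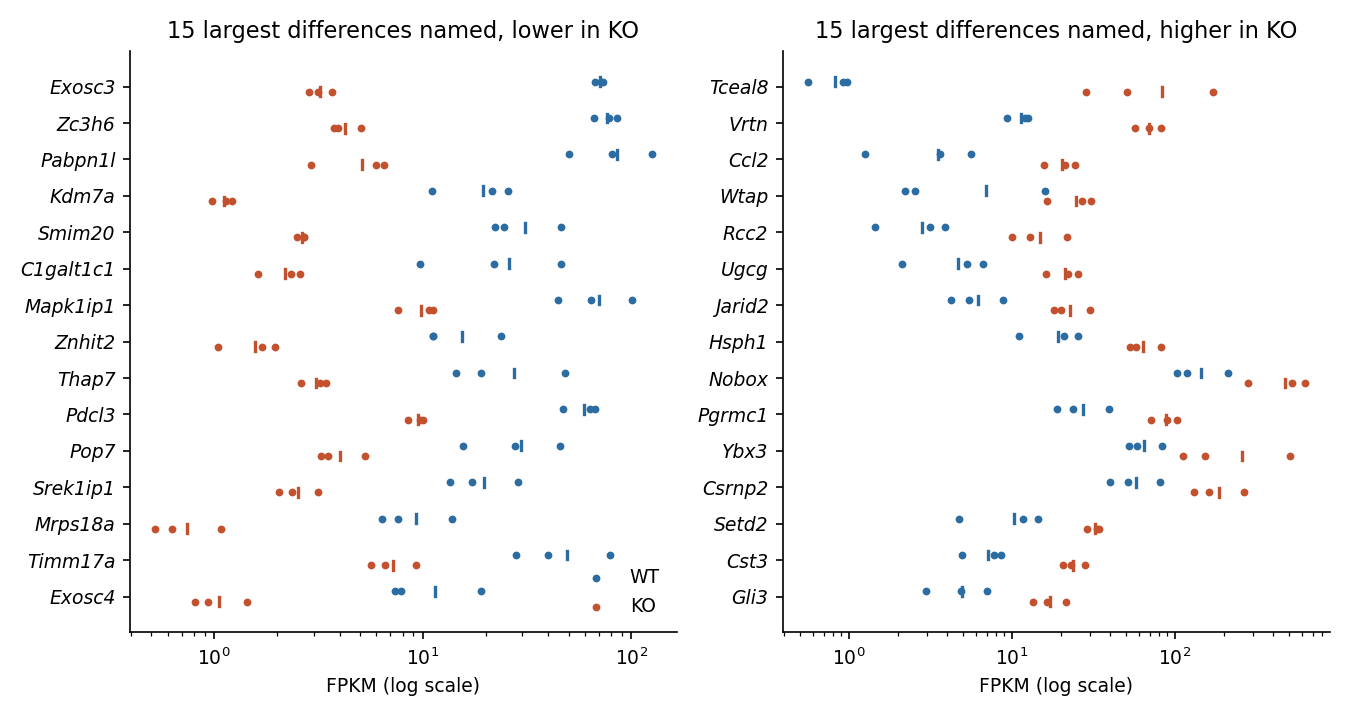
FPKM (log scale) in each of the 3 WT (blue) and 3 KO (orange) libraries at MI for the 15 named genes with the largest differences in each direction; vertical ticks are group means. Only genes without overlap of the groups were eligible; the gap is wide in Exosc3 and Zc3h6 and narrow in Wtap, where WT 1 lies at 16.1 FPKM and KO 1 at 16.5.

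Oocytes time polyadenylation by short elements at the 3' end of an mRNA, and 5 such ends are shown for genes that recur in the results, 4 of them lower in KO and 1, Setd2, higher. Each line is 30 bases of the 3' UTR in the last exon, written 5' to 3' on the mRNA strand as DNA. Capitals mark a cytoplasmic polyadenylation element (CPE, TTTTAT or TTTTAAT) and the poly(A) signal (AATAAA or ATTAAA). The sequences are of GENCODE vM21 transcripts on mm10. Exosc3 lies at chr4:45316621-45316650 (minus strand) and Bcl2l10 at chr9:75351590-75351619 (plus strand). Cnot8 lies at chr11:58118552-58118581 (plus strand), Cenph at chr13:100759709-100759738 (minus strand) and Setd2 at chr9:110618571-110618600 (plus strand).
Exosc3: ataaaaacTTTTATatAATAAActttgttg
Bcl2l10: tTTTTAATaacttcaaattcttAATAAAtg
Cnot8: tatgtTTTTAATtttgtaaAATAAAgattg
Cenph: ttacTTTTATaacttaaggAATAAAaagaa
Setd2: tgaactTTTTATgtaaaaAATAAAatcaat

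Such a pair, both motifs on the mRNA strand within 30 bases of the final 100, was present in 11 of 104 named and called genes with a 3' UTR of at least 100 bases (10.6%). Over all protein-coding genes tested with such a UTR it was present in 561 of 7172 (7.82%), in 93 of the 949 lower genes (9.80%) and in 14 of the 282 higher genes (4.96%). A CPE anywhere in the final 100 bases was found in 22.7% of lower genes, 15.6% of higher genes and 21.2% of all. In the whole 3' UTR the order differed, with 61.4%, 63.8% and 65.2%. These are matches of letters in 1 transcript per gene, and neither binding nor tail length was measured.

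Higher genes were fewer and of varied function. Tceal8, a gene of the TCEA-like family on the X chromosome, had 0.925, 0.977 and 0.561 FPKM in WT and 51, 28.3 and 171 in KO. It was below 1 FPKM in every WT library, so that it was tested only through its KO values, which spread widely. Vrtn, the gene of vertnin, had 12.5, 12.1 and 9.4 FPKM in WT and 57.1, 69.3 and 82.5 in KO (log2 2.51, SE 0.56, adjusted p = 0.00438). Ccl2, a chemokine that attracts monocytes, had 5.62, 3.65 and 1.26 FPKM in WT and 15.7, 21.1 and 24.5 in KO (log2 2.36, SE 0.47, adjusted p = 0.00164). It was higher in the libraries in which the blood and immune markers summed to less. Nobox, a homeobox regulator of oocyte genes, had 103, 212 and 119 FPKM in WT and 524, 627 and 279 in KO (log2 1.71, SE 0.34, adjusted p = 0.00174). Ugcg, the glucosylceramide synthase, had 5.29, 6.61 and 2.13 FPKM in WT and 22.1, 16.1 and 25.6 in KO (2.04). Jarid2, a Polycomb cofactor, had 8.83, 5.45 and 4.23 FPKM in WT and 18.2, 19.9 and 30.3 in KO (1.75). Setd2, the methyltransferase for H3K36, had 14.6, 11.7 and 4.77 FPKM in WT and 33.2, 34.4 and 28.9 in KO (1.66).

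Hsph1, a large heat shock protein, had 21, 25.4 and 11.1 FPKM in WT and 57.6, 53 and 81.8 in KO (1.74). Pgrmc1, a heme-binding membrane protein, had 23.6, 39.4 and 19 FPKM in WT and 71.3, 89 and 103 in KO (1.70). Cst3, the secreted protease inhibitor cystatin C, had 7.77, 8.59 and 4.95 FPKM in WT and 22.9, 28 and 20.5 in KO (1.63). With Csrnp2 (1.67), 11 of the 15 higher calls held. Wtap, a subunit of the m6A methyltransferase complex, had 16.1, 2.54 and 2.21 FPKM in WT and 16.5, 26.9 and 30.7 in KO (2.11) and was lost without WT 2 (0.0578). Ybx3, a Y-box RNA-binding protein, had 83.4, 52.6 and 58.5 FPKM in WT and 112, 154 and 511 in KO (1.68) and was lost without WT 2, WT 3 or KO 3 (0.0749 to 0.203). Its KO mean rests largely on KO 3. Rcc2 (2.05), a regulator of chromosome condensation and the passenger complex, was lost without WT 2, WT 3, KO 2 or KO 3 (0.0645 to 0.132). Gli3 (1.63), a transcription factor of Hedgehog signalling, was lost without WT 3 or KO 3 (0.0532 to 0.0558).

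The gene lists that follow are read against the shares of all genes, 14.2% lower and 3.89% higher, or 11.9% and 8.58% with median-of-ratios scaling. Of 24 factors that store and repress mRNA, 2 were higher (8.33%) and 1 lower (4.17%), with a median of 0.26 against -0.12 for all genes. Median-of-ratios scaling gave 8 higher and 1 lower, so the number of differences depends on the scale. Zar1l, a paralog of the mRNA storage factor ZAR1, had 81.3, 127 and 92 FPKM in WT and 30.3, 24.3 and 32.8 in KO (log2 -1.73, SE 0.31, adjusted p = 0.000777), and the call held. Ddx6, the helicase partner of LSM14 proteins, had 2.9, 6.3 and 2.47 FPKM in WT and 9.51, 8.72 and 6.9 in KO (log2 1.01, SE 0.32, adjusted p = 0.035). The groups did not overlap, but the call was lost without WT 1, WT 3, KO 1, KO 2 or KO 3 (0.0516 to 0.133). The other higher gene was Ybx3. Eif4enif1, which encodes 4E-T, had 77.3, 92.2 and 109 FPKM in WT and 92.9, 100 and 85.2 in KO and was not called (0.01).

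Deadenylases shorten poly(A) tails. Of 16 CCR4-NOT and PAN subunits tested, 5 were lower (31.2%, beside 14.2% of all genes) and the others not called, with a median of -0.14. With median-of-ratios scaling 3 were lower, beside 11.9% of all genes, and 3 higher. Without WT 1 or KO 2 the count of lower genes was 2 and without WT 2, KO 1 or KO 3 it was 3. Cnot8, a catalytic subunit, had 68.4, 93.4 and 61.1 FPKM in WT and 31.7, 33 and 20.5 in KO (log2 -1.36, SE 0.26, adjusted p = 0.00112). Cnot6, another catalytic subunit, had 3.92, 2.8 and 1.94 FPKM in WT and 1.04, 0.898 and 0.962 in KO (-0.95). Both calls held and neither gene's groups overlapped. The regulatory subunit Cnot3 had 12.2, 6.61 and 7.06 FPKM in WT and 2.73, 3.72 and 4.35 in KO (-1.04) and was lost without WT 1, KO 1 or KO 2 (0.0657 to 0.141). Its partner Cnot2 (-0.83) was lost without WT 1, WT 2, KO 1, KO 2 or KO 3 (0.0738 to 0.216), and with median-of-ratios scaling (0.146). The scaffold Cnot1 (-0.73) was lost without WT 1, WT 2, KO 2 or KO 3 (0.0765 to 0.185), and with median-of-ratios scaling (0.0536).

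Among 14 adaptors of maternal mRNA decay and uridylation enzymes, 3 were lower (21.4%). Btg4, the oocyte adaptor that brings CCR4-NOT to mRNA, had 4044, 3797 and 3524 FPKM in WT and 2177, 2231 and 1801 in KO (log2 -0.88, SE 0.24, adjusted p = 0.0151). The KO libraries were alike and all under WT, but the call was lost without KO 3 (0.0642), and with median-of-ratios scaling (0.136). The m6A reader Ythdf3 (-0.69) was lost without WT 1, WT 2, KO 1 or KO 2 (0.0909 to 0.142), and with median-of-ratios scaling (0.128). The uridylyltransferase Tut7 (-0.68) was lost without WT 1, WT 2, KO 1 or KO 3 (0.0509 to 0.112). Of 12 decapping factors and exonucleases, 3 were lower and 1 higher, 25% and 8.33%. Dcp1a, the activator of decapping, had 96.7, 91.7 and 99.8 FPKM in WT and 44, 39.9 and 21.9 in KO (log2 -1.48, SE 0.28, adjusted p = 0.00117). Dcp2, the decapping enzyme, had 21.9, 14.3 and 9.63 FPKM in WT and 5.49, 5.08 and 5.91 in KO (log2 -1.26, SE 0.28, adjusted p = 0.0044). Both held, with no overlap between the groups. The nuclear exonuclease Xrn2 (-0.58) was lost without each MI library in turn (0.0532 to 0.0952), and with median-of-ratios scaling (0.179). Lsm3, of the LSM ring, was higher (0.90) and was lost without WT 2, WT 3, KO 1 or KO 3 (0.0722 to 0.0935).

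The RNA exosome degrades RNA from its 3' end. Of its 16 tested subunits and cofactors, 5 were lower (31.2%) and the others not called, with a median of -0.37. Without KO 1 the count of lower genes was 2 and without WT 2 or KO 3 it was 3. Without WT 2, 2 others were higher. Exosc3 and Exosc4, given above, were the calls that held. Exosc7, of the ring, had 29.2, 27.9 and 24.8 FPKM in WT and 10.4, 11.7 and 14.5 in KO (log2 -1.11, SE 0.30, adjusted p = 0.0146) and was lost without KO 1 (0.0599). Exosc5 (-1.07), under 1 FPKM in every KO library, was lost without WT 2, KO 1 or KO 3 (0.0517 to 0.146). The helicase Mtrex (-0.78) was lost without WT 1, WT 2, KO 1 or KO 3 (0.0542 to 0.064), and with median-of-ratios scaling (0.0542). Differences of the subunits other than Exosc3 ran from -2.48 to 0.48.

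Of 19 factors of polyadenylation and CPE binding, 4 were lower (21.1%) and 1 higher, with a median of 0.14. Without WT 2 the counts were 2 and 2. Cpsf4l, a paralog of a subunit that recognizes the poly(A) signal, had 35.5, 118 and 58.4 FPKM in WT and 20.5, 18.2 and 11.9 in KO (log2 -1.87, SE 0.34, adjusted p = 0.000776). WT 2 was its highest library, and without it the adjusted p was 0.00615. Cpeb4, a CPE-binding protein that acts late in meiosis, had 14, 9.73 and 6.56 FPKM in WT and 2.06, 2.21 and 3.1 in KO (log2 -1.64, SE 0.32, adjusted p = 0.00141). Both calls held. The cleavage factor genes Wdr33 (-0.86) and Cpsf6 (-0.84) were lost without WT 2 or KO 3 (0.06 to 0.0899), and with median-of-ratios scaling (0.0768) and without WT 2 or KO 1 (0.0704 to 0.0743). Cstf2, the higher gene (0.85), was lost without WT 1, WT 3, KO 2 or KO 3 (0.0555 to 0.0854). Of 8 poly(A)-binding proteins and their regulators, Pabpn1l was lower and Pabpc1, the main somatic cytoplasmic form, higher. Pabpc1 had 1.06, 1.27 and 0.15 FPKM in WT and 7.29, 6.71 and 8.13 in KO (log2 2.25, SE 0.42, adjusted p = 0.0011). The 2 genes thus differed in opposite directions, each with complete separation of the groups.

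Dormant mRNAs are stored in the growing oocyte and polyadenylated during maturation. Of 38 tested, 11 were lower (28.9%) and 1 higher, with a median of -0.35. With median-of-ratios scaling 7 were lower and 1 higher. Without KO 3 the count of lower genes was 5, without WT 2 it was 6 and without WT 1 it was 7. Dazl, a germ-line activator of translation, had 579, 474 and 453 FPKM in WT and 206, 161 and 111 in KO (log2 -1.69, SE 0.27, adjusted p = 0.000235). Fbxo43, which encodes the APC/C inhibitor EMI2, had 56.5, 64 and 57.7 FPKM in WT and 23.7, 29.7 and 19.4 in KO (log2 -1.27, SE 0.23, adjusted p = 0.000651). Mos, the kinase that starts the MAPK cascade in oocytes, had 231, 231 and 231 FPKM in WT and 133, 155 and 71.8 in KO (log2 -1.01, SE 0.25, adjusted p = 0.00722). The groups did not overlap in these genes, and the 3 calls held, as did those of Dcp1a and Dcp2. Ccnb1, the cyclin B1 gene and a well-known dormant mRNA, had 297, 403 and 332 FPKM in WT and 311, 308 and 229.7 in KO. It was not called (log2 -0.28, SE 0.36, adjusted p = 0.639).

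The other lower dormant mRNAs were Btg4, given above, and Rif1, Orc6, Hprt, Ing3 and Cdc6. Rif1 (-1.24), a protein of replication timing, was lost without WT 1, WT 2, KO 1, KO 2 or KO 3 (0.0747 to 0.203). Orc6 (-0.92) and Cdc6 (-0.78), which license replication origins, were lost without WT 1, WT 2, KO 1 or KO 3 (0.0525 to 0.0728), and with median-of-ratios scaling (0.115) and without WT 2, KO 2 or KO 3 (0.0609 to 0.223). The purine salvage gene Hprt (-0.87) was lost without WT 1, WT 2, KO 2 or KO 3 (0.0793 to 0.0927), and with median-of-ratios scaling (0.135). The chromatin reader Ing3 (-0.81) was lost without WT 1, WT 2, KO 1 or KO 3 (0.0565 to 0.097), and with median-of-ratios scaling (0.0584). Ewsr1, an RNA-binding protein gene and the higher one (0.82), was lost without WT 1, WT 3, KO 2 or KO 3 (0.0694 to 0.123).

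Of 35 translation initiation factors, 6 were lower (17.1%) and 1 higher (2.86%), near the shares of all genes, 14.2% and 3.89%. Eif6, which keeps ribosomal subunits apart, had 31.1, 36.1 and 36.2 FPKM in WT and 5.89, 8.68 and 6.27 in KO (log2 -2.17, SE 0.21, adjusted p = 1.26e-06). Eif3g, a subunit of eIF3, had 43.4, 76.5 and 59 FPKM in WT and 20.5, 24.5 and 14.4 in KO (log2 -1.54, SE 0.25, adjusted p = 0.000312). The exchange factor eIF2B was represented by 3 lower subunits. Its Eif2b4 had 5.59, 8.27 and 4.85 FPKM in WT and 1.59, 1.79 and 1.19 in KO (-1.50), and its Eif2b2 had 7.83, 24.2 and 9.6 FPKM in WT and 4.61, 4.41 and 2.25 in KO (-1.53). The 4 calls of Eif6, Eif3g, Eif2b4 and Eif2b2 held, without overlap of the groups. Eif2b1 (-1.31) was lost without WT 2, WT 3 or KO 3 (0.0731 to 0.156), and with median-of-ratios scaling (0.106). Eif2s1 (-1.13), the alpha subunit of eIF2, was lost without WT 2 or KO 3 (0.0863 to 0.134), and with median-of-ratios scaling (0.0678). The helicase cofactor Eif4h was higher (1.16) and was lost without WT 1, WT 3 or KO 3 (0.0921 to 0.116).

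Of 67 cytosolic ribosomal protein genes, 3 were lower (4.48%) and 4 higher (5.97%), with a median of 0.16. With median-of-ratios scaling 3 were lower and 8 higher. Without WT 3 or KO 3 the count of higher genes was 1 and without WT 1, WT 2 or KO 1 it was 2. Rps27a, a ubiquitin fusion gene of the small subunit, had 31.8, 54.3 and 23.1 FPKM in WT and 6.59, 3.36 and 7.77 in KO (log2 -2.41, SE 0.39, adjusted p = 0.000278). Rpl6, of the large subunit, had 9.06, 26.8 and 4.68 FPKM in WT and 2.32, 1.54 and 2.14 in KO (log2 -1.97, SE 0.40, adjusted p = 0.00192). These 2 lower calls held. Rpl21 (-1.01) was lost without WT 1, WT 2, KO 1, KO 2 or KO 3 (0.0594 to 0.157). Of the higher genes, Rpl39 (1.24) was lost without WT 3 or KO 3 (0.0758 to 0.101), and Rplp0 (1.16) without WT 1, WT 3, KO 1 or KO 2 (0.0787 to 0.104). Rpl10 (1.08) was lost without WT 2 or KO 3 (0.0526 to 0.0612), and Rps25 (1.04) without WT 1, WT 2, WT 3, KO 1 or KO 3 (0.058 to 0.146). Genes of this family have many processed pseudogenes among which counting can split reads, so their values are uncertain.

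CDK1 with cyclin B drives entry into M phase. Of 27 genes of cyclin B, CDK1 and their regulators, 2 were higher and 2 lower (7.41% each), beside 3.89% and 14.2% of all genes. Wee1, which inhibits CDK1, had 3.48, 8.67 and 2.69 FPKM in WT and 12.5, 11.3 and 12.2 in KO (log2 1.26, SE 0.31, adjusted p = 0.00789), and the call held. Cdk1 had 2.89, 4.77 and 3.87 FPKM in WT and 6.62, 7.83 and 5.61 in KO (0.67) and was lost without WT 1, KO 1 or KO 2 (0.0718 to 0.13). Cdk7 (-0.88), of the CDK-activating kinase, was lost without WT 1, WT 2, WT 3 or KO 3 (0.055 to 0.171), and with median-of-ratios scaling (0.13). The phosphatase Cdc14b (-0.77) was lost without WT 2, KO 2 or KO 3 (0.0576 to 0.089). In the MOS and MAPK pathway 2 of 14 genes were lower, Mos and the phosphatase Dusp1 (-1.27), and the latter was lost without WT 2, KO 1 or KO 3 (0.0702 to 0.188).

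The APC/C marks cyclin B and securin for destruction. Of 20 genes of the APC/C, its inhibitors and separase, 4 were lower (20%) and the others not called, with a median of -0.03. Beside Fbxo43 these were 3 of its subunits. Cdc26 had 6.81, 5.46 and 3.6 FPKM in WT and 2.01, 1.66 and 1.48 in KO (log2 -1.18, SE 0.25, adjusted p = 0.00292). Anapc10 had 18.6, 23.5 and 12.3 FPKM in WT and 6.79, 7.89 and 10.1 in KO (log2 -1.02, SE 0.24, adjusted p = 0.00559). Both calls held. Anapc16 (-0.84) was lost without WT 3, KO 1 or KO 2 (0.0516 to 0.0724), and with median-of-ratios scaling (0.0708).

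Spindle assembly checkpoint genes delay anaphase until chromosomes are attached, and by limma 0 of 15 were called, with differences from -0.73 to 0.47. At an unadjusted p under 0.05, 3 were lower and 1 higher, and voom on the recovered reads called 0 of 14. Median-of-ratios scaling called 1 higher and 1 lower. The checkpoint kinase Bub1 had 40.3, 46.7 and 41.4 FPKM in WT and 47.7, 45.1 and 44.9 in KO. Bub1b, which encodes BUBR1, had 387, 162 and 202 FPKM in WT and 294, 289.5 and 317 in KO. Both had overlapping ranges. Of 11 genes of the Aurora kinases, the passenger complex and Polo-like kinases, 1 was called. It was Haspin, the histone kinase that recruits the passenger complex, with 22.4, 26.8 and 17.4 FPKM in WT and 10.2, 7.87 and 7.35 in KO (log2 -1.28, SE 0.27, adjusted p = 0.00284), and the call held.

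Kinetochore and centromere genes were lower in 7 of 31 tested (22.6%) and higher in 1 (3.23%), with a median of -0.23. Mis18a, which takes part in loading the centromeric histone, had 46.9, 43.9 and 52 FPKM in WT and 14.5, 16.7 and 13.9 in KO (log2 -1.60, SE 0.20, adjusted p = 2.7e-05). Cenpa, that histone, had 5.79, 6.95 and 3.72 FPKM in WT and 1.43, 2.16 and 1.94 in KO (log2 -1.17, SE 0.24, adjusted p = 0.0026). The inner kinetochore gene Cenph had 104, 101 and 86.5 FPKM in WT and 32.3, 37.1 and 56.7 in KO (-1.23), and Cenpm had 65.9, 116 and 66 FPKM in WT and 28.1, 35.6 and 34.2 in KO (-1.27). In all 4 the KO libraries lay below WT and the calls held. Dsn1, of the microtubule-binding network, had 168, 173 and 169 FPKM in WT and 91.6, 95.5 and 104 in KO (-0.81), and its call held for every library but was lost with median-of-ratios scaling (0.105). Cenps (-1.07) was lost without WT 1, WT 2, KO 1 or KO 2 (0.0754 to 0.171), and with median-of-ratios scaling (0.0547). Cenpc1, which links centromere and kinetochore, was the higher gene. It had 4.67, 5.4 and 4.48 FPKM in WT and 9.31, 13 and 10.4 in KO (log2 1.02, SE 0.20, adjusted p = 0.00178), and the call held.

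Cohesin holds sister chromatids together and condensin compacts them. Of 21 genes of cohesin, condensin and shugoshin, 4 were lower (19%) and 1 higher, and none of these calls held. All 4 lower calls were lost without WT 2. Meikin, a meiotic kinetochore protein that acts with shugoshin, had 5.91, 12 and 6.26 FPKM in WT and 2.55, 3.05 and 3.85 in KO (-1.07) and was lost without WT 2 or KO 1 (0.0603 to 0.0919). The cohesin genes Smc3 (-1.0) and Stag2 (-0.98) were lost without WT 1, WT 2, KO 1, KO 2 or KO 3 (0.0733 to 0.128) and without WT 1, WT 2 or KO 3 (0.095 to 0.104). The condensin gene Ncapg (-0.93) was lost without WT 2, WT 3 or KO 3 (0.0649 to 0.177), and with median-of-ratios scaling (0.159). Smc1a, of cohesin, was higher (0.80) and was lost without WT 3, KO 1, KO 2 or KO 3 (0.0537 to 0.111).

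Of 32 spindle genes, 4 were lower (12.5%, near the 14.2% of all genes) and the others not called, with a median of -0.04. Nedd1, which anchors gamma-tubulin, had 37.8, 41.2 and 33.9 FPKM in WT and 16.7, 16.5 and 12.5 in KO (log2 -1.26, SE 0.21, adjusted p = 0.000348). Kif5b, the heavy chain of kinesin-1, had 7.88, 6.42 and 4.46 FPKM in WT and 2.38, 2.07 and 1.81 in KO (log2 -1.21, SE 0.25, adjusted p = 0.00226). Both calls held. Tacc3, which stabilizes spindle fibres, had 143, 189 and 272 FPKM in WT and 101, 87.4 and 39.8 in KO (-1.45) and was lost without WT 3 or KO 3 (0.0666 to 0.101), and with median-of-ratios scaling (0.0732). Tubb4b (-1.20), a beta-tubulin, was lost without WT 2 or KO 3 (0.0653 to 0.0766).

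Of 25 genes of actin and spindle migration, 6 were higher (24%, beside 3.89% of all genes) and 1 lower, with a median of 0.39. With WT 1, WT 2 or KO 2 left out 4 were higher, the fewest in the fits without 1 MI library, and with median-of-ratios scaling 9. Pfn1, profilin 1, had 25.6, 24.5 and 24.7 FPKM in WT and 61.7, 65.2 and 50.9 in KO (log2 1.21, SE 0.23, adjusted p = 0.00131). Arpc2, of the ARP2/3 nucleator, had 86, 76.5 and 72.1 FPKM in WT and 125, 126 and 127 in KO (log2 0.68, SE 0.19, adjusted p = 0.015). Both calls held, without overlap. Tmsb10, a thymosin that binds actin monomers, had 447, 257 and 345 FPKM in WT and 673, 727 and 1129 in KO (1.26) and was lost without WT 2 or KO 3 (0.0685 to 0.0707). Cfl1, cofilin, had 712, 664 and 1283 FPKM in WT and 1662, 1966 and 1416 in KO (0.98) and was lost without WT 1, WT 2 or KO 2 (0.0709 to 0.0969). Pfn2 (0.81) was lost without WT 1 or KO 2 (0.0718 to 0.0774), and Arpc3 (0.76) without WT 2, WT 3, KO 1 or KO 3 (0.0532 to 0.161). Arpc4, of the same nucleator, was the lower gene (-0.83) and was lost without WT 2 or KO 1 (0.057 to 0.0651).

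Of 21 genes of the zona, egg surface and fertilization, 1 was lower (4.76%). It was Oosp3, a gene of the oocyte-secreted protein family, with 754, 385 and 579.9 FPKM in WT and 237, 188 and 300 in KO (log2 -1.21, SE 0.30, adjusted p = 0.0078). Its call held for every library but was lost with median-of-ratios scaling (0.0633), under which 1 other gene was higher. Of 22 oocyte growth and transcription factors, 2 were higher (9.09%) and 4 lower (18.2%). Without WT 2 the count of lower genes was 1 and without KO 3 it was 2. Sall4, a zinc finger transcription factor, had 126, 49.8 and 61.2 FPKM in WT and 217, 248 and 213 in KO (log2 1.62, SE 0.26, adjusted p = 0.000321). Bcl2l10, an oocyte member of the BCL2 family, had 13531, 11895 and 12489 FPKM in WT and 4113, 4364 and 4672 in KO (log2 -1.53, SE 0.21, adjusted p = 7.35e-05). With Nobox, these calls held, Sall4 being higher and Bcl2l10 lower. The growth factor gene Fgf8 had 25.3, 62 and 15.4 FPKM in WT and 6.16, 9.87 and 12.3 in KO (-1.57) and was lost without WT 2 or KO 1 (0.0575 to 0.0789). Sohlh2 (-1.27), a transcription factor of early oocytes, was lost without WT 2 or KO 3 (0.0749 to 0.111), and Tcl1 (-0.95) without WT 1, WT 2 or KO 3 (0.0667 to 0.103). Gdf9, the growth factor that acts on granulosa cells, had 1833, 3031 and 3296 FPKM in WT and 2112, 2979 and 1461 in KO and was not called (-0.33).

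A list of maternal effect genes and the subcortical maternal complex had 35 tested members, of which 4 were higher and 4 lower (11.4% each). Median-of-ratios scaling gave 6 higher and 2 lower. Without WT 3 or KO 3 the count of higher genes was 1 and without WT 1, WT 2, KO 1 or KO 2 it was 2. Without WT 2 the count of lower genes was 1 and without WT 3, KO 2 or KO 3 it was 2. Kdm7a, given above, was the call that held. Zfp57, which protects imprints, had 652, 704 and 1145 FPKM in WT and 1610.4, 1666 and 1347 in KO (log2 0.93, SE 0.23, adjusted p = 0.00954) and was lost without WT 1 (0.0512). The Polycomb gene Rnf2 had 34.6, 39.5 and 27.7 FPKM in WT and 16.8, 16.8 and 18.2 in KO (-0.92) and was lost without WT 2 (0.0554). Ooep, of the subcortical complex, had 4031, 2757 and 3225 FPKM in WT and 6189.7, 4880.4 and 8631 in KO (0.95) and was lost without WT 1, WT 2, WT 3, KO 1 or KO 3 (0.0511 to 0.201). Nlrp2 (-0.98) was lost without WT 2, WT 3, KO 1, KO 2 or KO 3 (0.0782 to 0.159), and with median-of-ratios scaling (0.151). Nlrp4a (-0.66) was lost without WT 1, WT 2, WT 3, KO 2 or KO 3 (0.0577 to 0.0966), and with median-of-ratios scaling (0.222). Gclm (1.15), of glutathione synthesis, was lost without WT 2, WT 3, KO 2 or KO 3 (0.0575 to 0.179). Trim28 (1.63), the partner of ZFP57, was lost without WT 2, WT 3, KO 1, KO 2 or KO 3 (0.0551 to 0.121). Nlrp5, a core member of the complex, had 215, 439.9 and 425 FPKM in WT and 307, 387 and 312 in KO and was not called (-0.04). Of 4 tested genes of the 2-cell embryo, 2 were lower. Tcstv3 had 21.1, 36.1 and 21.1 FPKM in WT and 6.55, 8.89 and 9.79 in KO (log2 -1.50, SE 0.26, adjusted p = 0.000532), Tcstv1 differed by -1.22, and both calls held.

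Of 31 chaperones, 3 were lower (9.68%) and 2 higher (6.45%), beside 14.2% and 3.89% of all genes, and all 5 calls held. Pfdn4, a prefoldin subunit on the same chromosome as Lsm14b, had 796, 479 and 577 FPKM in WT and 42.4, 48.9 and 50.2 in KO (log2 -3.65, SE 0.27, adjusted p = 1.19e-07), with 28.7% of its exon bases lying in other genes too. Prefoldin hands substrates to the chaperonin TRiC, of which 1 subunit was lower and 1 higher. Cct5 had 276, 295 and 288 FPKM in WT and 126, 122 and 88 in KO (log2 -1.36, SE 0.23, adjusted p = 0.000467). Cct4 had 5.69, 17.1 and 5.04 FPKM in WT and 42.4, 44.7 and 16.5 in KO (log2 1.85, SE 0.40, adjusted p = 0.0035), with groups that overlapped. The other calls were Pdcl3 and Hsph1. Of 28 genes of endoplasmic reticulum stress and COPII transport, 2 were lower (7.14%) and 3 higher (10.7%). Sar1b, the small GTPase of the COPII coat, had 24, 57.5 and 31 FPKM in WT and 7.16, 7.0 and 4.39 in KO (log2 -2.35, SE 0.37, adjusted p = 0.0002). Hspa5, the chaperone BiP, had 35.5, 40.2 and 28.5 FPKM in WT and 83.3, 106 and 92.3 in KO (log2 1.41, SE 0.35, adjusted p = 0.00903). Both held. Dnajc3 (-0.93) was lost without WT 1 or KO 3 (0.0526 to 0.0687). The coat genes Sec23a (0.82) and Sec23b (0.81) were higher and were lost without WT 1, WT 2, WT 3 or KO 3 (0.0566 to 0.151) and without WT 1, WT 3, KO 1, KO 2 or KO 3 (0.0603 to 0.15).

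The proteasome degrades ubiquitinated proteins such as cyclin B, and 5 of its 34 tested genes were lower, the others not called, with a median of -0.24. The lower share, 14.7%, was near the 14.2% of all genes. Without KO 3 the count of lower genes was 1 and without WT 2 it was 3. Psmc1, an ATPase of the regulatory particle, had 45.4, 70.6 and 42 FPKM in WT and 18.6, 16.3 and 10.9 in KO (log2 -1.72, SE 0.26, adjusted p = 0.000185), and the call held. Psmc5 (-0.92) was lost without KO 3 (0.0537), and Adrm1 (-0.88), a ubiquitin receptor, without WT 2 or KO 3 (0.0522 to 0.0537). Psma5 (-0.81) was lost without WT 1, WT 3, KO 1, KO 2 or KO 3 (0.054 to 0.111), and with median-of-ratios scaling (0.0962), and Psmd1 (-0.74) without WT 2, WT 3 or KO 3 (0.0577 to 0.126), and with median-of-ratios scaling (0.129).

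Of 71 nuclear genes of oxidative phosphorylation, 5 were lower (7.04%, beside 14.2% of all genes) and 1 higher. Without WT 2 the count of lower genes was 1, without KO 3 it was 2 and without KO 1 it was 3. Ndufv1, the flavoprotein subunit of complex I, had 4.28, 9.83 and 6.19 FPKM in WT and 0.867, 1.52 and 0.913 in KO (log2 -1.84, SE 0.25, adjusted p = 4.98e-05). Atpif1, the inhibitor of ATP synthase, had 3.87, 3.52 and 4.85 FPKM in WT and 10.6, 9.98 and 11.8 in KO (log2 1.22, SE 0.29, adjusted p = 0.00581), with 33.7% of its exon bases lying in other genes too. Both held. Ndufb7 (-1.27), under 1 FPKM in every KO library, was lost without WT 2 (0.0902), and Ndufa9 (-0.89) without WT 2, WT 3, KO 1, KO 2 or KO 3 (0.0594 to 0.265), and with median-of-ratios scaling (0.121). Uqcrfs1 (-0.86) was lost without WT 2 or KO 3 (0.111 to 0.129), and Atp5o (-0.76) without WT 2, WT 3, KO 1 or KO 3 (0.068 to 0.148), and with median-of-ratios scaling (0.0632). The 12 mRNAs encoded in mitochondria had differences of -0.90 to -0.05, with a median of -0.58. By limma 0 of them were called, against 2 lower at an unadjusted p under 0.05 and 0 with voom. mt-Nd4, of complex I, had 817, 647 and 307 FPKM in WT and 209, 266 and 504 in KO, so that WT 3 lay inside the KO range, and without WT 3, 3 of the 12 were called lower.

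Among 18 genes of p53, apoptosis and DNA damage, 5 were lower (27.8%) and 2 higher (11.1%), with a median of -0.41. Without WT 2 or KO 3 the count of lower genes was 3. H2afx, the histone variant that is phosphorylated at DNA breaks, had 25.2, 30.2 and 23.5 FPKM in WT and 4.83, 6.94 and 4.29 in KO (log2 -2.12, SE 0.35, adjusted p = 0.000378). Xrcc6, of the end-joining factor Ku, had 6.32, 10.9 and 5.76 FPKM in WT and 3.69, 3.93 and 2.14 in KO (log2 -1.01, SE 0.24, adjusted p = 0.00604). With Bcl2l10, these calls held. Mdm2 (-0.69), the ligase that degrades p53, was lost without WT 2, WT 3, KO 1, KO 2 or KO 3 (0.0525 to 0.0798), and with median-of-ratios scaling (0.139). Of the higher genes, Trp53 (0.92), p53 itself, was lost without WT 1, WT 3 or KO 2 (0.0535 to 0.0905). Trp63 (0.93), which guards oocytes, was lost without WT 1, WT 3, KO 1, KO 2 or KO 3 (0.0745 to 0.162). Of 31 chromatin modifiers, 3 were lower and 3 higher (9.68% each), and with median-of-ratios scaling 2 and 6. Kdm7a and Setd2, given above, held. The acetyltransferases Kat8 (-1.13) and Kat5 (-0.65) were lost without WT 2, WT 3, KO 1 or KO 3 (0.0543 to 0.217), and with median-of-ratios scaling (0.0842) and without WT 1, WT 2, WT 3, KO 1 or KO 3 (0.0557 to 0.17). The higher genes Kdm5c (0.90) and Ehmt1 (0.83) were lost without WT 2, WT 3, KO 2 or KO 3 (0.0551 to 0.102) and without WT 2, WT 3, KO 1, KO 2 or KO 3 (0.075 to 0.131).

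**Figure D3:**
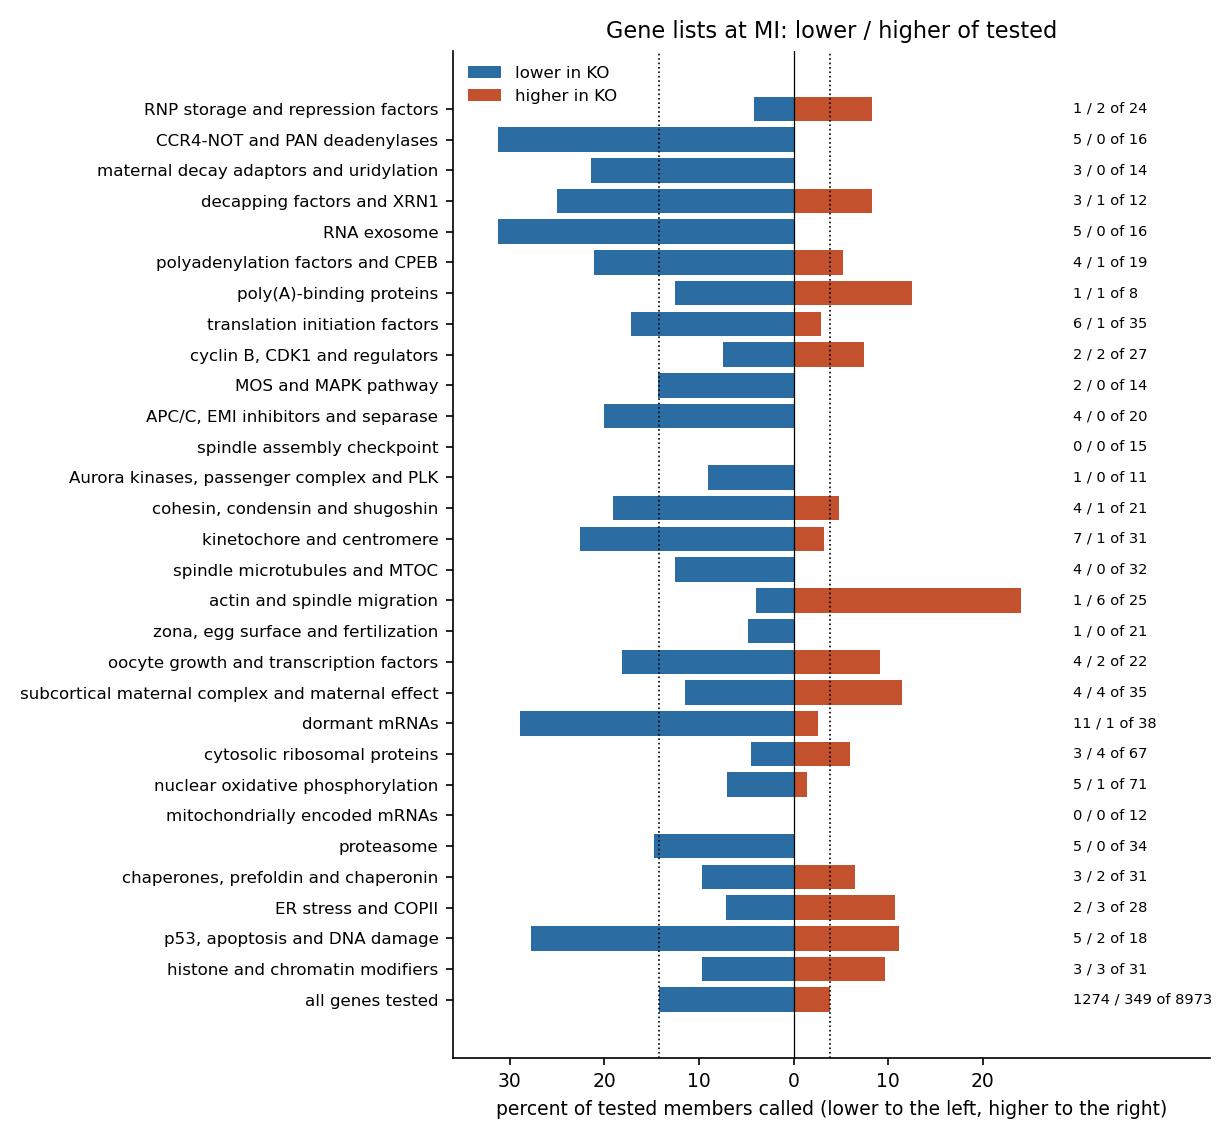
Percent of the tested members of each gene list shown that were called lower (blue, to the left) or higher (orange, to the right) in KO at MI. Dotted lines are the shares over all genes tested, 14.2% and 3.89%, and the numbers at the right are members lower / higher of those tested. The cell type marker lists and the 2-cell embryo list (2 of 4 lower) are left out. Of the lists shown, on the deposited scale, the exosome, CCR4-NOT, dormant mRNA and p53 lists reach furthest past the left line. The actin list reaches furthest past the right line, and further lists lie past each. With median-of-ratios scaling the CCR4-NOT list has 3 members in each direction.

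The genes that differed at MI were then followed in the libraries of the other stages. Of the 1274 lower at MI, 338 were also lower at both GV and MII, 151 at GV alone, 363 at MII alone, and 403 were called at neither. The few others were higher in KO at GV or at MII. Among all genes tested, 8.0% were lower at GV and 14.4% at MII. Of the 349 higher at MI, 164 were higher at both, 68 at GV alone, 71 at MII alone and 46 at neither, beside 13.5% and 16.4% of all genes. Calls at each stage came from the same fit with a shared estimate of spread per gene, so they are not independent of one another. Exosc3 was low in KO throughout, with -3.36 at GV, -4.08 at MI and -3.58 at MII. Zc3h6 (-4.11 at GV, -3.89 at MI and -4.45 at MII) and Dazl (-2.17 at GV, -1.69 at MI and -2.11 at MII) were also low in KO at each stage. A call at one stage and not at another does not show that the stages differ, so the difference between stages was tested itself.

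Between MI and GV that test called 4 genes (0.0446%), all more negative at MI, and 0 more positive. At an unadjusted p under 0.05, 995 were negative and 134 positive, and voom called 6 and 0. The median over all genes was -0.32. Eif6 was the 1 gene of the 4 with an established name. At GV its values were 79.3, 70.5 and 71.3 FPKM in WT and 57.3, 65.3 and 77.3 in KO, with overlapping groups. At MI, as above, the groups were far apart (MI minus GV -2.02, SE 0.30, adjusted p = 0.00721). The mean in KO at MI was 6.95 ± 1.51 FPKM, beside 34.5 ± 2.91 in WT at MI and 6.67 ± 1.25 in WT at MII (SD, n = 3). This last pairing was chosen after the values were seen and was not tested. The other 3 were Gm11954, a processed pseudogene, Gm22825, annotated as a miRNA, and Gm42553, chosen here after their values were seen. The count was 480 without KO GV replicate 3 and 7 without WT 1. KO GV replicates 2 and 3 lay furthest from their group mean, with an SD of the deviations over genes of 0.538 and 0.492. In the other libraries it was 0.181 to 0.335. The few calls thus do not show that the genotype difference was alike at MI and GV.

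Between MI and MII the genotype difference itself differed in 494 genes, 489 more negative at MI (5.45%) and 5 more positive (0.0557%). MII here names a time, 14 h after hCG. A difference between the genotypes in the stage reached by then cannot be told apart from a difference at a like stage. Most of the former, 339, were not called at MI and were higher in KO at MII. Zp2, a glycoprotein gene of the zona, had 927, 1627 and 2058 FPKM in WT and 1282, 1405 and 1735 in KO at MI. Its groups overlapped there, with a log2 difference of 0.00 against 4.50 at MII (MI minus MII -4.50, SE 0.41, adjusted p = 5.28e-06). Zp3, another zona gene, gave -0.14 at GV, 0.55 at MI and 2.99 at MII. The egg surface tetraspanin Cd9 gave 0.02 at GV, 0.87 at MI and 4.2 at MII. Ergic3, of the early secretory pathway, gave 0.31 at GV, -0.31 at MI and 3.12 at MII. Tmsb10 was higher at MI and more so at MII (1.34 at GV, 1.26 at MI and 4.93 at MII), its MI call having been lost without WT 2 or KO 3 (0.0685 to 0.0707). Chchd2, a mitochondrial protein gene, was alike (1.10 at GV, 1.05 at MI and 4.57 at MII), its MI call having been lost without each MI library in turn (0.056 to 0.135).

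Another 107 genes were lower at MI and not called at MII, and 15 were lower at MI and higher at MII. Smim20 belonged here, with -2.16 at GV, -3.06 at MI and -0.08 at MII. At MI its mean was 30.9 ± 13.2 FPKM in WT and 2.63 ± 0.115 in KO, and at MII 0.508 ± 0.193 and 0.422 ± 0.0995 (SD, n = 3). The KO was thus already low at MI, whereas WT was low at MII (MI minus MII -2.98, SE 0.35, adjusted p = 0.000103). Mrps18a had 9.26 ± 4.0 FPKM in WT and 0.743 ± 0.299 in KO at MI, then 0.547 ± 0.0469 and 0.25 ± 0.0926 at MII. At MII both means of Smim20, Mrps18a and Ndufv1 were under 1 FPKM, where log2(FPKM + 1) understates a difference between genotypes. A missing call there does not show that the genotypes were alike at MII. Timm17a gave -1.27 at GV, -2.50 at MI and -0.64 at MII, and Thap7 -1.51 at GV, -2.60 at MI and -0.42 at MII. Eif3g (-0.14 at GV, -1.54 at MI and 0.43 at MII) and Ndufv1 (-0.15 at GV, -1.84 at MI and -0.28 at MII) likewise had their lowest value at MI. So did Cpsf4l (-1.41 at GV, -1.87 at MI and 0.60 at MII). Against GV, the limma contrast called none of Smim20, Mrps18a, Timm17a, Thap7, Eif3g, Ndufv1 and Cpsf4l (adjusted p = 0.0986 to 0.652). In the positive direction Sall4 gave 0.64 at GV, 1.62 at MI and 0.32 at MII (MI minus MII 1.30, SE 0.37, adjusted p = 0.0477). The count of 494 was 256 without WT 2, 311 without KO 3 and 785 without KO GV replicate 2. It was 284 and 285 without WT MII replicates 2 and 3, 274 and 285 without KO MII replicates 1 and 3, and 272 with a pseudocount of 5.

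**Figure D4:**
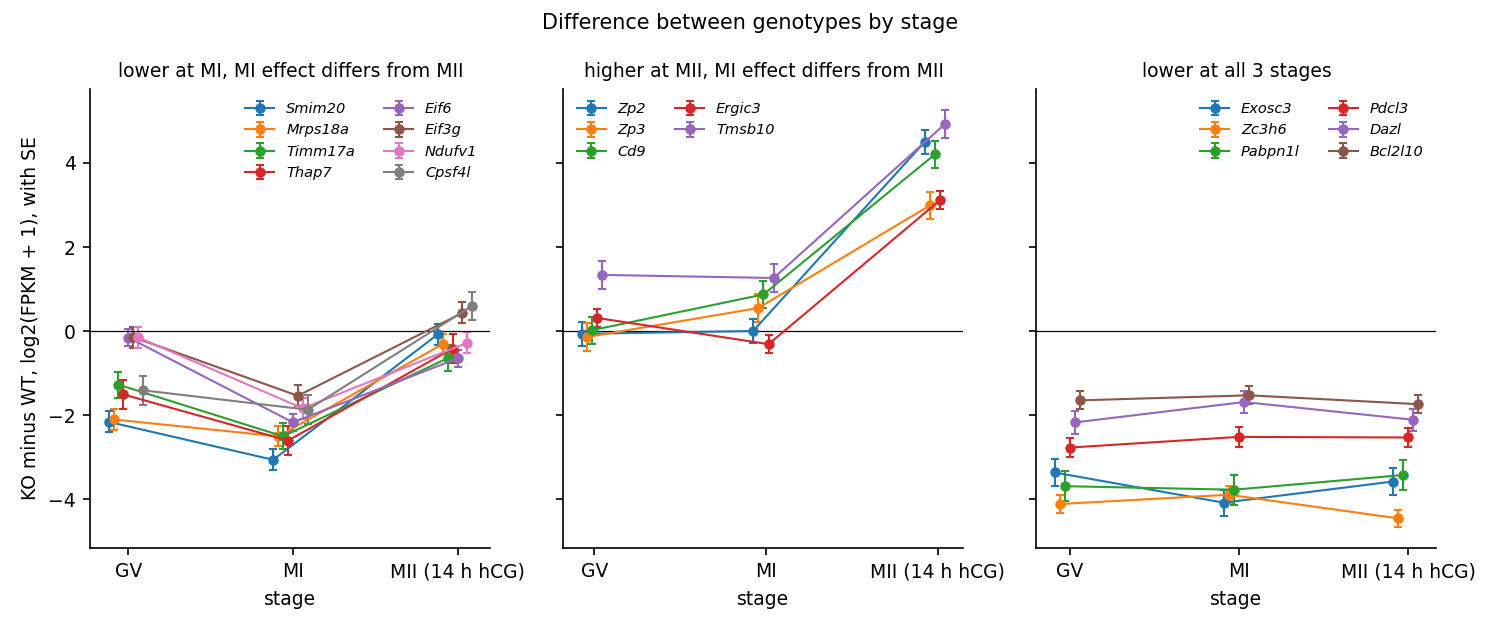
Log2 difference between KO and WT (vertical axis, log2(FPKM + 1), bars are the SE of the fit, 3 libraries per group) at GV, MI and MII (14 h after hCG) for named genes in 3 panels. Genes of one panel have their lowest value at MI, such as Smim20 at -3.06, but of these only Eif6 was called against GV. Those of another are highest at MII, such as Zp2 at 4.50. Those of the remaining panel are lower in KO at each stage, such as Exosc3, which is at -4.08 at MI.

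Classes of genes by their change in WT from GV to MII were drawn from WT GV and WT MII libraries. Their levels do not enter the log2 difference at MI, but these libraries share in the estimate of spread that decides its calls. Of 2001 genes that fell at least 2-fold, 410 were lower in KO at MI (20.5%) and 62 higher (3.10%), with a median log2 difference of -0.30. Of 1528 that rose at least 2-fold, 203 were lower (13.3%) and 47 higher (3.08%), with a median of -0.09. Of the 5444 others, 661 were lower (12.1%) and 240 higher (4.41%), with a median of -0.08. The share of lower genes was thus largest among genes that fell in WT. In the order falling, rising and other, the lower shares were 17.6%, 11.8% and 9.79% with median-of-ratios scaling and 19.0%, 12.8% and 10.6% with quantile normalization. Without WT 2 they were 10.9%, 8.64% and 7.0%. With a 4-fold minimum they were 23.1%, 9.86% and 13.2%, so that the order of the last 2 classes turned. The rising class then held 71 genes, of which 7 were lower, so this turn rests on few genes.

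Lower genes were shorter. The median exon length was 3447 bases among 1021 lower protein-coding genes, 4616 among 299 higher ones and 4335 among all 7643 tested. The median coding lengths were 1098, 1347 and 1350 bases. When genes were cut into 5 equal groups from short to long exons, 19.8%, 15.3%, 12.8%, 9.88% and 9.03% were lower in KO. The shares of higher genes were 3.47%, 3.4%, 3.79%, 5.17% and 3.73%, with no such trend. From the shortest to the longest group the lower share went from 17.6% to 7.52% with median-of-ratios scaling and from 12.6% to 4.91% without WT 2. Short genes were also more abundant, with a median of 10.3 FPKM in WT in the shortest group and 4.25 in the longest. The part of level in this trend was not tested.

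**Figure D5:**
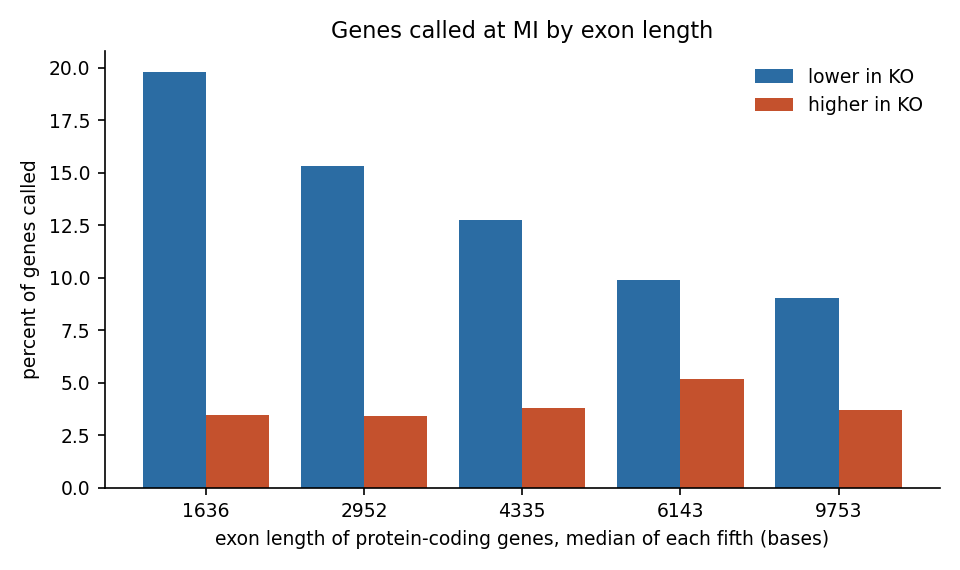
Percent of protein-coding genes called lower (blue) or higher (orange) in KO at MI in 5 equal groups by exon length, labelled by the median length in bases. The lower share falls from 19.8% in the shortest group to 9.03% in the longest, while the higher share lies between 3.4% and 5.17%.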

How the data were processed

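RNA of 18 pools of 15 oocytes was copied with oligo(dT) and amplified by the Smart-seq2 method, per the labels' protocols. The authors deposited 1 table of FPKM values per gene, with the genome build mm10 and DESeq2 1.38.3 named, without a role, per the submitters' processing notes. No aligner, counter, annotation or strand setting is given in the sources used here, so reads of a gene and its antisense partner cannot be told apart. Multiplied by exon lengths of GENCODE vM21, the deposited FPKM gave whole reads, within 0.05 of a read for 92.8% to 93.3% of values in a library, and 94.1% of genes were whole in all libraries within 0.1. Of 27874 gene IDs, 27829 matched that annotation.

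Values were tested as log2(FPKM + 1), which understates differences of low genes. limma 3.58.1 (R 4.3.3, trended empirical Bayes) fitted all 6 groups of 3 libraries with 12 residual degrees of freedom, and p-values were adjusted by Benjamini-Hochberg over 8973 genes, with 0.05 as the threshold. Differences between stages were contrasts of the same fit. Every difference is KO minus WT. Alternatives were pseudocounts of 0.1 and 5, no filter, a filter at 5 FPKM, median-of-ratios and quantile scaling, the MI libraries alone, voom on recovered reads of 8106 genes, a replicate block, and each library left out; fits without the GV groups were planned too, and those without the MII groups, or without single libraries of stages outside a comparison, were added after seeing the data.

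Members, gene lists and tests were chosen with earlier results of these data known. Named genes were Lsm14b and Lsm14a; the 15 largest differences each way among called genes with a mean of at least 5 FPKM, no overlap of the groups, at most 20% of exon bases shared with other genes and an established symbol, first those called in the MI libraries alone; the 5 largest each way of each contrast between stages; and up to 4 genes of smallest p in each of 34 lists. Others were named after their values were seen, because a list had few calls or for their role, and a few genes of the lists are not reported here. Lists held 922 symbols, of which 901 were found and 730 tested. Tables and figures were made with Python 3.11.15, pandas 2.3.3, numpy 2.4.6, scipy 1.17.1 and matplotlib 3.10.9.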

Additional observations from a re-analysis of the deposited data

Results flagged for a closer look

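The difference between KO and WT at MI was tested against that at another stage, and 21 genes that passed are given (limma, Benjamini-Hochberg over all genes, adjusted p in brackets). Values are the log2 difference at MI minus that at the other stage. Eif6 was the one that passed against GV, with -2.019 (0.00721), and against MII it gave -1.522 (0.00507). Among the genes with the largest negative differences at MI, the values against MII were -2.983 for Smim20 (0.000103), -1.687 for Mapk1ip1 (0.0309), -1.936 for Znhit2 (0.0129), -2.189 for Thap7 (0.0114), -2.194 for Mrps18a (0.000996) and -1.859 for Timm17a (0.017). Further genes that were lower at MI gave -2.063 for Rps27a (0.0321), -2.473 for Cpsf4l (0.00493), -1.972 for Eif3g (0.00297) and -1.562 for Ndufv1 (0.0123). Genes whose KO level was higher at MII gave -3.427 for Ergic3 (5.25e-06), -4.498 for Zp2 (5.28e-06), -2.44 for Zp3 (0.0041) and -3.333 for Cd9 (0.000212). Genes also called higher at MI gave -1.4 for Zfp57 (0.017), -3.513 for Chchd2 (0.000327), -1.579 for Rpl10 (0.0321) and -3.67 for Tmsb10 (0.000144). None of the MI calls of these genes held. In the other direction Rpl17 gave 1.372 (0.0358) and Sall4 1.3 (0.0477).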

How the results depend on the processing

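Of 152 named genes 119 were called, and over 29 alternative settings their calls were kept 3186 times and lost 240 times, and never reversed. In every setting 70 kept the call, and 109 kept it with the MI libraries alone. The count of 1623 called genes was 894 with a filter at 5 FPKM, and 1024 to 2071 when single libraries of any stage were left out. The count of higher genes was 212 with a filter at 5 FPKM, 770 with median-of-ratios scaling, 1041 with quantile normalization, 571 without the GV groups, 204 without the MII groups, and 166 to 532 without single libraries. The count of lower genes was 682 with a filter at 5 FPKM and 732 to 1539 without single libraries. For MI minus GV the count of 4 was 14 without a filter, 1 with only the 4 groups compared, and 3 to 480 without single libraries. For MI minus MII the count of 494 was 272 with a pseudocount of 5, 243 without a filter, and 256 to 785 without single libraries. With 4-fold classes of WT genes the percent lower was 23.14 among falling, 9.859 among rising and 13.23 among other genes. Over the whole 3' UTR a CPE was found in 63.83% of higher, 61.43% of lower and 65.2% of all genes. A stricter filter, no filter and fewer libraries change how many genes or libraries enter; the cause of the other shifts was not tested. With a replicate block 1805 genes were called, 437 higher and 1368 lower, with 3 for MI minus GV and 435 for MI minus MII, and 115 of the 119 named calls were kept. Same-numbered MI libraries had correlations of deviations of -0.19, 0.27 and -0.13. With 3 libraries per group these values cannot decide whether same-numbered libraries were handled together, and the labels do not say. No pairing was assumed in the main fit. In 3 libraries per group an exact permutation test cannot go below 0.1.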

Other observations

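Further gene families were looked at after the values had been seen, so their counts are descriptions, to be read against 14.2% lower and 3.89% higher of all genes. Mitochondrial ribosomal proteins translate the mRNAs of the mitochondrial genome, and 21 of 65 genes were lower and 1 higher, with a median of -0.41. With median-of-ratios scaling the counts were 19 and 3, and without WT 2, 15 were lower. Of the 21, 13 stayed called without any single MI library. Mrpl41 had 6.41, 14 and 4.49 FPKM in WT and 0.752, 1.376 and 0.75 in KO (log2 -2.13, SE 0.33, adjusted p = 0.000208). Mrpl46 had 11, 21.8 and 7.94 FPKM in WT and 2.79, 1.97 and 2.78 in KO (log2 -1.95, SE 0.31, adjusted p = 0.000222). Mrpl36 had 7.2, 12.4 and 6.75 FPKM in WT and 1.88, 2.96 and 2.45 in KO (log2 -1.48, SE 0.28, adjusted p = 0.00124). In these genes every KO library lay below every WT library, with WT 2 the highest. Mrpl27 (7.28, 6.69 and 7.29 FPKM in WT and 1.91, 2.25 and 2.64 in KO, log2 -1.31) was lower without WT 2 standing out. The higher gene was Mrpl20 (0.84), under 1 FPKM in every WT library, and it was lost without WT 3, KO 1 or KO 2 (0.0681 to 0.0838).

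Translocases of the mitochondrial membranes, of the Timm and Tomm families, were lower in 6 of 16 genes and the others were not called. Beside Timm17a, Timm50 had 6.89, 17.7 and 6.72 FPKM in WT and 1.47, 3.1 and 1.49 in KO (log2 -1.83, SE 0.31, adjusted p = 0.000404). Tomm22, the receptor of the outer membrane complex, had 23.9, 27.8 and 23 FPKM in WT and 8.84, 10.3 and 8.27 in KO (log2 -1.35, SE 0.23, adjusted p = 0.000532). Timm21 (-1.65), like these, stayed called without any single MI library. Timm13 (-1.52) was lost without WT 2 or KO 1 (0.0659 to 0.104), and Timm8a1 (-0.94) without WT 2 (0.0693). Of 4 genes of the SMN complex, which assembles spliceosomal particles, Gemin6 had 26.6, 31.7 and 31.9 FPKM in WT and 10.8, 10.4 and 15.1 in KO (-1.26) and Gemin7 25, 39.98 and 21.5 FPKM in WT and 9.95, 11.1 and 11 in KO (-1.31), and both stayed called. Of 21 RNA polymerase subunits 3 were lower (14.3%, near the 14.2% of all genes). Among them was Polr2c, with 214, 217 and 184 FPKM in WT and 89.9, 107 and 106 in KO (log2 -1.01, SE 0.21, adjusted p = 0.00263). The others were Polr1e (-1.17) and Polr3c (-0.63), and the latter was lost without WT 2, WT 3, KO 1, KO 2 or KO 3 (0.0597 to 0.213), and with median-of-ratios scaling (0.0648). Of 163 zinc finger genes named Zfp, 25 were lower and 4 higher, near the shares of all genes, and 18 and 10 with median-of-ratios scaling. Without WT 2 or KO 3 the count of lower genes was 13. Without WT 1 or WT 3 the count of higher genes was 1 and without WT 2, KO 1 or KO 2 it was 2. Of 19 aminoacyl-tRNA synthetases 1 was lower and 1 higher (5.26% each), with a median of 0.05. The lower gene was Sars (-0.94) and the higher one Tars (0.66), and neither call held.

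Noncoding classes held more lower genes than protein-coding ones, of which 13.4% were lower. The shares were 23.3% of 404 lincRNAs, 28.3% of 120 antisense genes and 31.6% of 57 processed transcripts, against 10.7% of 503 processed pseudogenes. Without WT 2 they were 14.6%, 17.5%, 17.5% and 6.16%, beside 7.47% of protein-coding genes. As strand is not given, antisense genes may hold reads of their partners. Of 337 genes on the X chromosome 8.01% were higher and 9.50% lower, the highest and the lowest share of the 20 chromosomes on the deposited scale, and without WT 2 6.53% and 6.23%. Of 50 genes within 10 Mb of Lsm14b 10 were lower and 1, the splicing factor gene Prpf6 (log2 1.03), higher, beside 14.2% and 3.89% of all genes. Pfdn4, given above, was 1 of the 10, at 9.53 Mb. Whether the position played a part was not tested.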
